A study of Mus musculus with 8 samples.

Results

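The T cell receptor complex and the proteins that carry its first signals were followed here through 9 genes, of 24426 in the count table, chosen by symbol: Cd3e, Cd3d, Cd3g, Cd247, Cd4, Lck, Zap70, Lat and Lcp2. All 9 were in the table and all 9 were among the 11851 genes that passed the filter on low counts. Poly(A) RNA had been sequenced from mouse Th17 cells (helper T cells that make interleukin-17) in 8 libraries, all on the C57BL/6J background and cultured in the condition labelled Th17(23), with harvest on day 4 to 5. The groups, of 2 libraries each, were cells transduced with miR-96 (miR-96 overexpression), cells transduced with a control vector, miR-183C-/- cells (knockout) and miR-183C+/+ cells (wild type), where miR-183C is the miR-183/96/182 cluster. The knockout and wild-type libraries are labelled as not transduced, although the protocol, written for all samples, describes a sort for GFP-positive cells. No label says that the duplicates came from separate animals or cultures, so p-values measure the spread between these libraries, which may be technical.

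The T cell receptor has no signalling domain of its own and depends on the CD3 chains and the zeta chain, whose tyrosine-based motifs are phosphorylated when the receptor meets its ligand. The kinase Lck, brought in by the coreceptor CD4, phosphorylates these motifs, ZAP-70 docks on them, and ZAP-70 in turn phosphorylates the adaptors LAT and SLP-76 (encoded by Lcp2), from which the calcium, protein kinase C and Ras branches start. In Th17 cells, the strength of this signal is known to affect how much interleukin-17 is made.

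The microRNAs that the study changed are shown because their seeds set which sites were searched in the 9 genes. They lie on the minus strand of chromosome 6, and the sequences are RefSeq's (GRCm38.p6), with the seed, bases 2 to 8 from the 5′ end, in capitals.
mmu-miR-96-5p: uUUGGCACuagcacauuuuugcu
mmu-miR-182-5p: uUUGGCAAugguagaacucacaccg
mmu-miR-183-5p: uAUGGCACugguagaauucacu
None of the 3 shares its whole seed with another, but that of miR-96 differs from that of miR-182 only at base 8 and from that of miR-183 only at base 2. Matches shorter than bases 2 to 8 were not searched. The longest 3′ UTRs of the 9 genes, 225 to 2188 bases long in GENCODE mouse release 21 (GRCm38), held no match to bases 2 to 8 of miR-96 or miR-182 (GTGCCAA and TTGCCAA). A match to miR-183 (GTGCCAT) was found in 2 of the 9, Cd3d and Lck. Their sites are printed with the match in capitals, and lie at position 18 of the 995-base UTR of Cd3d and at position 64 of the 454-base UTR of Lck.
Cd3d, chr9:44986362-44986368, plus strand: ggtttctcaaaGTGCCATagcaacggcgcc
Lck, chr4:129548728-129548734, minus strand: atggaattcctGTGCCATatctgtgtggcc
Across the 11061 tested genes with an annotated 3′ UTR, 9.40% held the miR-96 match, 12.3% the miR-182 match, 10.8% the miR-183 match and 26.5% any of them. A match is a description of the sequence, and binding was not measured.

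The libraries held between 7142429 and 12452659 estimated counts. Of the targeted genes, Mir96 was counted 7 times in overexpression library 1, 2 times in overexpression library 2 and 0 times elsewhere, and Mir182 and Mir183 were at 0 throughout, wild type included, so they do not check the knockout. Knockout library 1 stood apart in its values: 55.6% of its detected genes, and 9 of the 9 genes studied here, had estimated counts that were not whole to within 0.02, against 6.39% to 7.41% of genes and 0 or 1 of the 9 in each other library. Member counts ran from 657 (95% exact Poisson interval 607.7 to 709.2, counting error only) to 6914, and the coefficient of variation between libraries of a group, over all tested genes, was 0.188.

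Levels are given as CPM, counts relative to the library's total, computed here with library sizes scaled by TMM. Per kilobase of exon, the mean CPM over the 8 libraries was highest for Lck (167 CPM per kb) and Lat (164), followed by Cd3d (144), Lcp2 (126), Cd4 (111), Zap70 (86.4), Cd3g (84.3), Cd3e (42.9) and Cd247 (24.9). The order was the same when the length of the longest transcript was used. Cd247 was thus the least abundant of the 9 genes on this scale, the CD3 chains included. Of its exon bases, 56.4% are shared with the opposite-strand gene Pou2f1, and whether reads were counted by strand is not given. Cd247 was also the most variable of the 9: its highest library had 2.98 times the CPM of its lowest, a ratio larger than that of 77.2% of tested genes. Cd3g was the least variable, with a ratio of 1.18, and only 1.52% of tested genes had a smaller one. The other 7 genes had ratios of 1.30 (Zap70) to 1.69 (Lck), against a median of 1.83 over all tested genes and of 1.53 over the 1660 genes at least as abundant as Cd247.

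**Figure D1:**
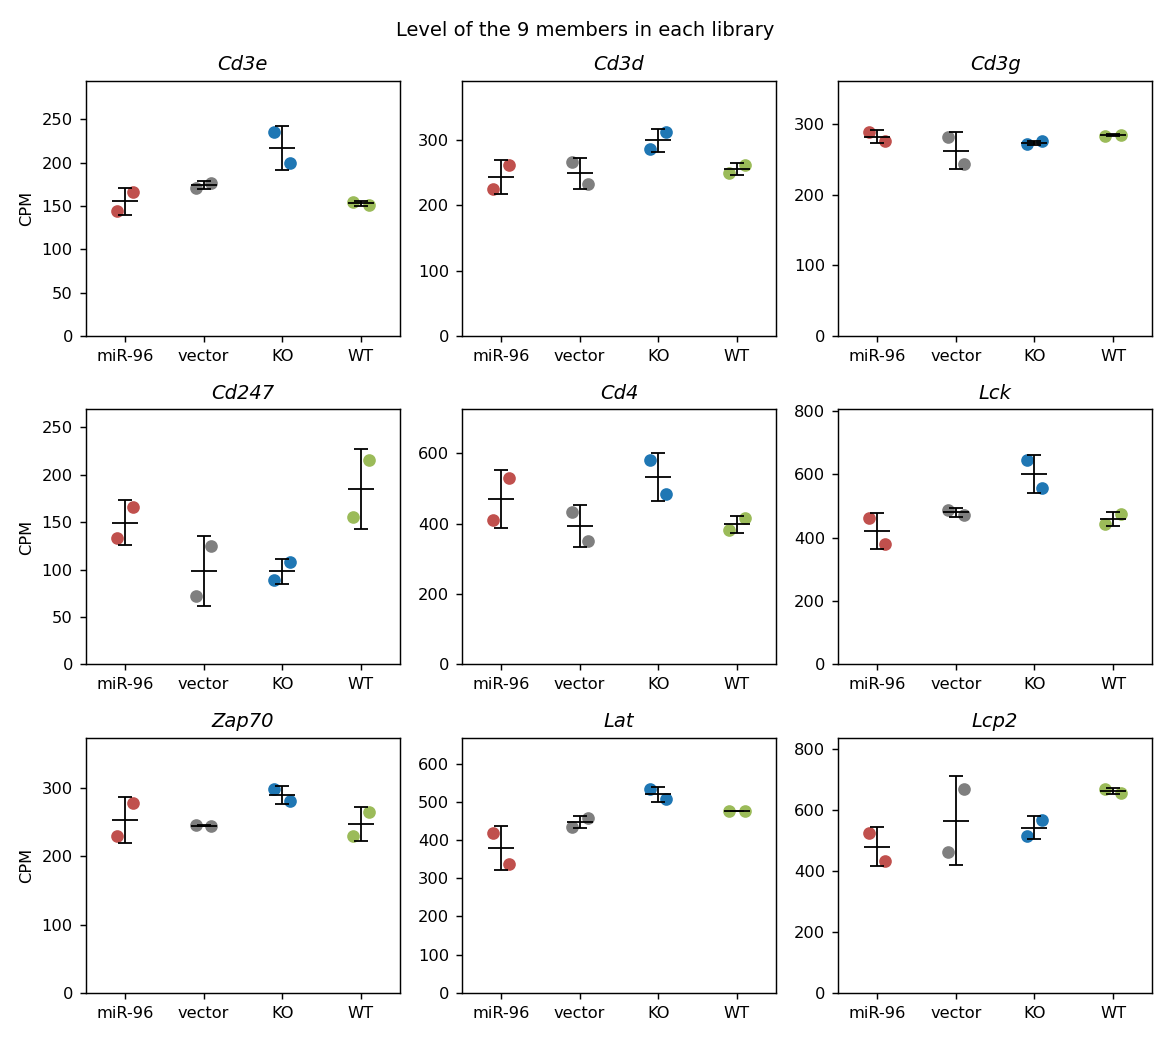
Level of each of the 9 genes in each library, in CPM on axes that start at 0, with points for single libraries, long bars for group means and whiskers for the SD (n = 2 per group; miR-96, miR-96 overexpression; vector, control vector; KO, knockout; WT, wild type). Cd3e was highest in both knockout libraries, Cd247 was highest in wild type and overexpression libraries, and Cd3g had the smallest span, 1.18 times from lowest to highest library.

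Removal of the cluster was addressed by comparing knockout with wild type. In this comparison Cd3e rose 1.42-fold, Cd247 was at about 0.53 of its wild-type level without passing the test, and the remaining 7 genes did not pass it. By edgeR's quasi-likelihood test 1 of the 9 genes was called (adjusted p under 0.05 over all tested genes), and 13% of all tested genes were, so the share of members is near that of the background. In each direction, 1 rose, against 6.63% of all tested genes, and 0 fell, against 6.4%. In bulk RNA, fewer cells of a type and less RNA per cell cannot be told apart.

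Among the chains of the complex, Cd3e encodes CD3 epsilon, which pairs with CD3 delta or CD3 gamma. It had 235 and 199.5 CPM in knockout libraries, against 155 and 151 CPM in wild-type libraries. Both knockout libraries were above both wild-type libraries, and the log2 difference was 0.51 (SE 0.14, adjusted p = 0.0470, edgeR). This call lies at the edge of the threshold: it was lost with a replicate block (0.51, adjusted p = 0.0662) and when control vector library 2 (adjusted p = 0.0563), wild-type library 1 (0.186), wild-type library 2 (0.249) or knockout library 1 (0.306) was left out. Cd3e was higher in knockout in all 15 alternatives, at 0.40 to 0.61 on the log2 scale.

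Cd3d, which encodes CD3 delta, had 286 and 312 CPM in knockout libraries, against 249 and 262 CPM in wild-type libraries. Cd3g, which encodes CD3 gamma, had 271 and 275 CPM in knockout libraries, against 283 and 285 CPM in wild-type libraries. The groups did not overlap for either gene, but the log2 differences were small (0.23, SE 0.14, adjusted p = 0.276 for Cd3d; -0.06, SE 0.13, adjusted p = 0.785 for Cd3g). The value for Cd3g was 0.02 with upper-quartile scaling. The 3 CD3 genes are neighbours on chromosome 9 (GRCm38): Cd3g, 44969572 to 44980431 on the minus strand, Cd3d, 44981786 to 44987339 on the plus strand, and Cd3e, 44998740 to 45009627 on the minus strand. They span 40056 bases, with 1354 bases between the start of Cd3g and that of Cd3d. Their log2 differences in knockout ranged from -0.06 to 0.51.

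Cd247 encodes the zeta chain, which carries most of the phosphorylation motifs of the complex. It lies on chromosome 1, 165788681 to 165877277, plus strand, and had 88.9 and 108 CPM in knockout libraries, against 155 and 215 CPM in wild-type libraries. Both knockout libraries were below both wild-type libraries. The log2 difference of -0.91 (SE 0.27) did not pass the test (adjusted p = 0.0548), though it was called in 6 of 15 alternatives, with adjusted p from 1.5e-05 to 0.353 and the same sign in all 15. Of the exon bases of Cd247, 56.4% are shared with the opposite-strand gene Pou2f1, which encodes a transcription factor, and whether reads were counted by strand is not given. Pou2f1 had 43.3 and 31.8 CPM in knockout libraries, against 31.1 and 33.0 CPM in wild-type libraries, and did not pass the test (log2 difference 0.23, SE 0.23, adjusted p = 0.518). Reads of the 2 genes in the shared bases cannot be told apart.

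The ratio of 2 genes' counts within a library does not depend on library scaling. Cd247 over Cd3e was 0.377 and 0.540 in knockout libraries, against 1.00 and 1.43 in wild-type libraries. Cd3g over Cd3e was 1.15 and 1.38 in knockout libraries, against 1.82 and 1.89 in wild-type libraries, and Cd3d over Cd3e was 1.22 and 1.56 in knockout libraries, against 1.60 and 1.74 in wild-type libraries. In each of the 3 ratios, both knockout libraries were below both wild-type libraries. All 3 have Cd3e, which was called higher in knockout, as the denominator, so they are not separate results. The share of other gene pairs without overlap was not computed. The sum of the 3 CD3 chains and Cd247 was 882 and 895 CPM in knockout libraries, against 843 and 912 CPM in wild-type libraries. The groups thus overlapped for the sum on the TMM scale. With unscaled library totals they did not, at 913 and 887 CPM in knockout libraries, against 815 and 855 CPM in wild-type libraries.

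**Figure D2:**
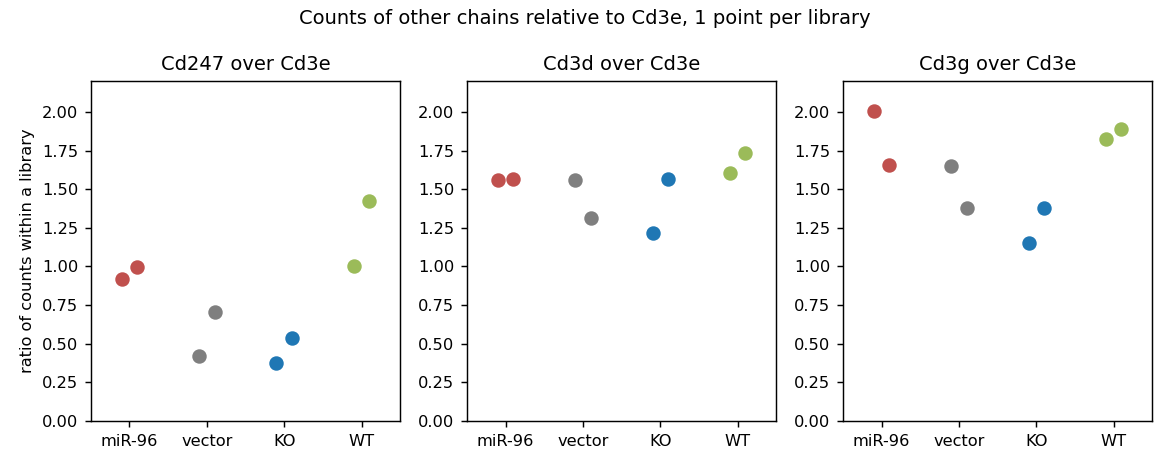
Ratio of the counts of Cd247, Cd3d and Cd3g to those of Cd3e within each library (1 point per library, axis from 0; group names as in the plot of levels). Cd247 over Cd3e lay between 0.92 and 1.43 in overexpression and wild-type libraries and between 0.38 and 0.70 in knockout and control vector libraries.

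The coreceptor and the kinases had higher values in knockout without passing the test. Cd4, the coreceptor that brings in Lck, had 579 and 483 CPM in knockout libraries, against 380.4 and 415 CPM in wild-type libraries (log2 difference 0.42, SE 0.18, adjusted p = 0.134). Lck, which phosphorylates the motifs first, had 643 and 557 CPM in knockout libraries, against 443 and 475 CPM in wild-type libraries (0.39, SE 0.15, adjusted p = 0.102). Zap70, which binds the phosphorylated motifs, had 298 and 281 CPM in knockout libraries, against 229 and 265 CPM in wild-type libraries (0.23, SE 0.14, adjusted p = 0.291). Both knockout libraries were above both wild-type libraries for each of these 3 genes. Zap70 over Lck, the ratio of the second kinase to the first, was 0.464 and 0.503 in knockout libraries, against 0.517 and 0.558 in wild-type libraries.

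The 2 adaptors had opposite signs. Lat, the membrane scaffold phosphorylated by ZAP-70, had 533 and 506 CPM in knockout libraries, against 475 and 476 CPM in wild-type libraries (0.13, SE 0.14, adjusted p = 0.549). Lcp2, whose protein SLP-76 joins LAT through a smaller adaptor, had 515 and 568 CPM in knockout libraries, against 668 and 655 CPM in wild-type libraries (-0.29, SE 0.19, adjusted p = 0.303). Neither passed the test. Lcp2 over Lat was 0.965 and 1.12 in knockout libraries, against 1.41 and 1.37 in wild-type libraries. These did not overlap, but neither did 69.8% of single tested genes, and the share of gene pairs was not computed.

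On TMM-scaled CPM, all 9 genes had groups that did not overlap, 6 higher and 3 lower (Cd3g, Cd247 and Lcp2) in knockout. This was common in this comparison: 69.8% of all tested genes did not overlap, 34.9% higher and 34.9% lower. In overexpression minus control vector, also with 2 libraries a group, the share was 35.9%. An unadjusted p under 0.05 was found for 4 of the 9 (Cd3e, Cd247, Cd4 and Lck), against 34.4% of all tested genes. The median log2 difference of the 9 was 0.23, against -0.01 over all tested genes.

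The effect of added miR-96 was addressed by comparing miR-96 overexpression with control vector. None of the 9 genes was called by edgeR, against 0.11% of all tested genes, 1 of the 9 (Cd247) had an unadjusted p under 0.05, against 8.7%, and DESeq2 called 0 of the 9, against 0.916% of all genes it tested. For 4 of the 9 the groups did not overlap, against 35.9% of tested genes: Cd247 was higher in both overexpression libraries (18.3% of tested genes were), and Cd3e, Lck and Lat were lower (17.6% were). The median log2 difference of the 9 was -0.04, against 0.01 over all tested genes.

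Cd247 had 133 and 166 CPM in overexpression libraries, against 72.1 and 125 CPM in control vector libraries. The log2 difference of 0.61 (SE 0.27) had an unadjusted p of 0.0492 and an adjusted p of 0.574 in edgeR. The 2 control vector libraries were far apart, and the difference was 0.24 without control vector library 1 and 1.06 without control vector library 2. Pou2f1, the gene that shares its exon bases, had 31.0 and 42.5 CPM in overexpression libraries, against 30.05 and 39.8 CPM in control vector libraries. Cd247 over Cd3e was 0.921 and 0.998 in overexpression libraries, against 0.423 and 0.703 in control vector libraries.

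None of the 3 CD3 chains passed the test. Cd3e had 144 and 167 CPM in overexpression libraries, against 171 and 177 CPM in control vector libraries (log2 difference -0.16, SE 0.14, adjusted p = 0.785). Cd3d had 225 and 261 CPM in overexpression libraries, against 266 and 232 CPM in control vector libraries (-0.04, SE 0.14, adjusted p = 0.963). Cd3g had 289 and 275 CPM in overexpression libraries, against 281 and 244 CPM in control vector libraries (0.10, SE 0.13, adjusted p = 0.872). The groups overlapped for Cd3d and Cd3g but not for Cd3e.

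Cd4 had 411 and 528 CPM in overexpression libraries, against 434 and 350.1 CPM in control vector libraries (0.26, SE 0.18, adjusted p = 0.729). Lck had 462 and 381 CPM in overexpression libraries, against 488 and 469.9 CPM in control vector libraries (-0.18, SE 0.15, adjusted p = 0.766). Zap70 had 229 and 277 CPM in overexpression libraries, against 245 and 244 CPM in control vector libraries (0.05, SE 0.14, adjusted p = 0.954). Of these 3, only Lck had groups that did not overlap, and its log2 difference was close to its SE.

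Lat had 419 and 338 CPM in overexpression libraries, against 435 and 458 CPM in control vector libraries (-0.24, SE 0.14, adjusted p = 0.668). Lcp2 had 524 and 434 CPM in overexpression libraries, against 461 and 668 CPM in control vector libraries (-0.24, SE 0.19, adjusted p = 0.763). Both adaptors had lower means in overexpression, and Lcp2 had the wider spread, with control vector library 2 above the other 3 libraries.

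**Figure D3:**
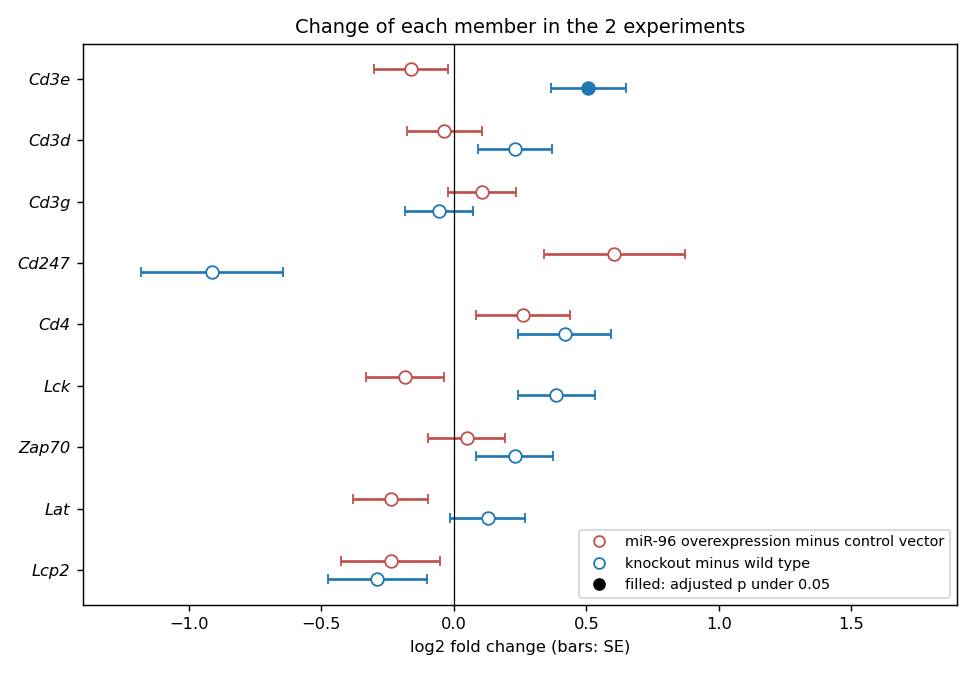
log2 fold change of each of the 9 genes in miR-96 overexpression minus control vector (red) and knockout minus wild type (blue), with bars for the SE from edgeR and filled points for an adjusted p under 0.05. Cd3e in knockout minus wild type, at 0.51, is the filled point, and Cd247 lies at 0.61 in overexpression and -0.91 in knockout.

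Whether a gene responded differently in the 2 experiments was tested as the overexpression effect minus the knockout effect, which share no libraries. Of the 9 genes, 1 was called, against 9.03% of all tested genes, and 3 had an unadjusted p under 0.05 (Cd247, Cd3e and Lck), against 29.8%. Cd247 differed by 1.52 on the log2 scale (SE 0.38, adjusted p = 0.0426): higher in both overexpression libraries than in control vector libraries and lower in both knockout libraries than in wild-type libraries. The sign held in all 14 alternatives (1.11 to 1.97), and the call held in 8 of them. It was lost when control vector library 1 (adjusted p = 0.0973), overexpression library 1 (0.0501), overexpression library 2 (0.0853), wild-type library 1 (0.0773), wild-type library 2 (0.174) or knockout library 1 (0.173) was left out. Cd3e differed by -0.67 (SE 0.20, adjusted p = 0.0651) and Lck by -0.57 (SE 0.21, adjusted p = 0.105), neither of which passed.

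The summed markers of B cells and of CD8 T and NK cells moved in the same directions as Cd247, but not every marker did. The summed level of 8 B cell markers was 78.7 and 91.8 CPM in overexpression libraries, against 28.7 and 17.5 CPM in control vector libraries, and 17.0 and 18.2 CPM in knockout libraries, against 75.8 and 156 CPM in wild-type libraries. Among the 7 B cell markers tested, 2 (Cd79a and Jchain) rose in overexpression, against 0.11% of all tested genes. In knockout 5 (Cd79a, Cd79b, Ms4a1, Jchain and Mzb1) fell, against 6.4%. Ebf1 had groups that overlapped in overexpression (log2 difference 0.06) and was not called in knockout (-0.66). Pax5 was at 0 in 2 libraries. The sum of 8 CD8 T and NK cell markers was 38.8 and 45.8 CPM in overexpression libraries, against 11.2 and 16.7 CPM in control vector libraries, and 12.0 and 15.8 CPM in knockout libraries, against 42.0 and 71.0 CPM in wild-type libraries. Of the 6 tested, none was called in overexpression, against 0.11% of all tested genes. In knockout 2 (Gzma and Prf1) fell, against 6.4%. Cd8b1 had groups that overlapped in both experiments (log2 difference 0.21 in overexpression and 0.23 in knockout). The NK cell markers Klrb1c and Ncr1 were at 0 in all 8 libraries.

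The sum of 6 Th17 genes followed the same order, at 828 and 1139 CPM in overexpression libraries, against 558 and 335 CPM in control vector libraries, and 199 and 225 CPM in knockout libraries, against 580.4 and 903 CPM in wild-type libraries. Il17a and Il17f, the interleukin-17 genes, fell in knockout, and none of the 6 was called in overexpression. The sum of 7 myeloid markers, of which Cd68 was the most abundant, was 16.2 and 26.5 CPM in overexpression libraries, against 18.9 and 7.25 CPM in control vector libraries, and 16.0 and 7.74 CPM in knockout libraries, against 7.43 and 11.1 CPM in wild-type libraries. None of its 6 tested members was called in either experiment. Of 6 gamma delta T cell markers, 1 (Sox13) was matched, at 0.387 to 2.86 CPM. The part of these cells in the level of Cd247, or of any other of the 9 genes, was not tested.

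**Figure D4:**
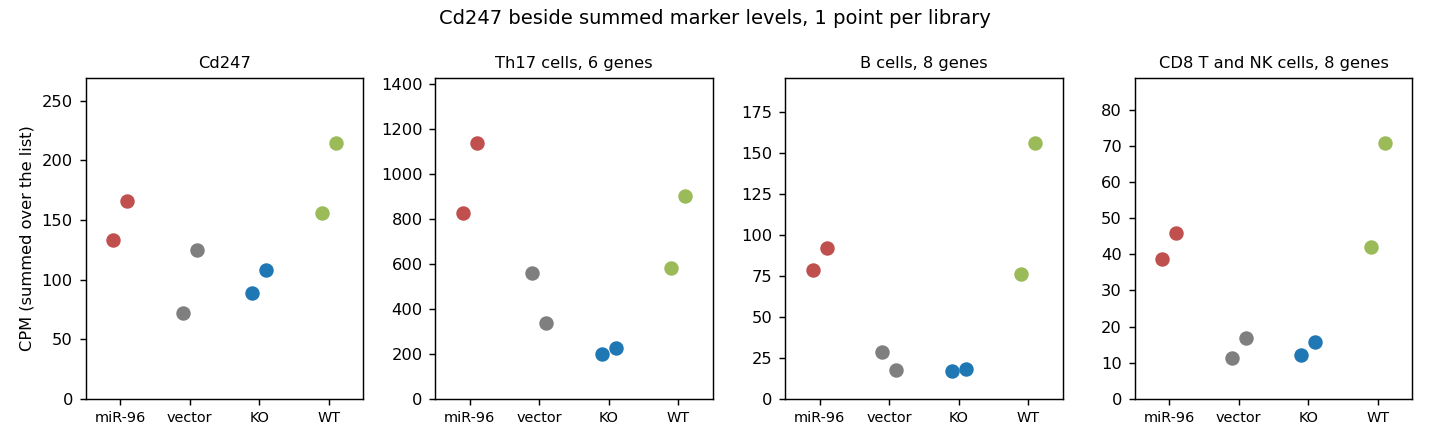
Level of Cd247 and summed levels of markers of Th17 cells (6 genes), B cells (8) and CD8 T and NK cells (8) in each library, in CPM on axes that start at 0 (1 point per library; group names as in the plot of levels). In each panel both overexpression libraries are above both control vector libraries and both knockout libraries are below both wild-type libraries.

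The baseline groups, wild type and control vector, differ in transduction as well as in experiment, which cannot be told apart, and each is shared with 1 of the comparisons above. None of the 9 genes was called between them, against 0.228% of all tested genes (0.219% higher and 0.00844% lower in wild type), 1 of the 9 (Cd247) had an unadjusted p under 0.05, against 16.5%, and DESeq2 called 1 of the 9, against 2.93% of all genes it tested. Cd247 had 155 and 215 CPM in wild-type libraries, against 72.1 and 125 CPM in control vector libraries (log2 difference 0.92, SE 0.27, adjusted p = 0.188). For 4 of the 9 genes the groups did not overlap, against 55.8% of tested genes. Cd3g, Cd247 and Lat were higher in wild type (29.3% of tested genes were), and Cd3e was lower (26.5% were). The difference in Cd247 of 0.92 stands beside -0.91 for knockout minus wild type, which uses the same wild-type libraries.

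Ordered by group mean, Cd3e, Cd3d, Lck, Zap70, Lat and Cd4 were highest in knockout. The knockout libraries did not overlap those of the next group for Cd3e, Cd3d, Lck, Zap70 and Lat, but did for Cd4. This order was not computed for all tested genes. Both knockout libraries were above both wild-type libraries for 34.9% of them, a comparison that leaves out the other groups. Cd247, Cd3g and Lcp2 were highest in wild type, and overlapped the next group. The summed level of the 9 genes was 2835 and 2827 CPM in overexpression libraries, against 2853 and 2969 CPM in control vector libraries, and 3450.2 and 3289 CPM in knockout libraries, against 3038 and 3198 CPM in wild-type libraries.

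Over the 8 libraries, log2 CPM of Lck and Lat had a Pearson r of 0.85, that of Cd4 and Zap70 of 0.84, and that of Cd3e and Lck of 0.78. Cd247 and Cd3e had an r of -0.60, and Cd4 and Lcp2 of -0.68. These are descriptions of 8 libraries that share groups and scaling. The tested genes most like each member over the 8 libraries were St14 and Zdhhc18 for Cd3e (r 0.98 for both), Atp6v1g1 and Mrps34 for Cd3d (0.97 for both), Tec and Ube2q2 for Cd3g (0.94 and 0.93), Zfp292 and Gzmc for Cd247 (0.98 for both) and Rabggta and Parp8 for Cd4 (0.99 for both). They were Cox6a1 and Mab21l2 for Lck (0.99 for both), Klhl18 and Erlec1 for Zap70 (0.97 and 0.96), Pop5 and Pole2 for Lat (0.98 and 0.97) and Stip1 and Mcm2 for Lcp2 (0.99 and 0.98).

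The promoters of Cd3e and Cd247, the genes with the largest differences in knockout, are shown because both held the letters CAGGAAGT, which contain the GGAA core bound by ETS factors. The motif was chosen after the promoters had been read. Each window runs from 250 bases before to 50 after the start (RefSeq, GRCm38.p6), and capitals mark the motif, which reads ACTTCCTG because it lies on the opposite strand.
Cd3e, chr9:45009562-45009861, minus strand: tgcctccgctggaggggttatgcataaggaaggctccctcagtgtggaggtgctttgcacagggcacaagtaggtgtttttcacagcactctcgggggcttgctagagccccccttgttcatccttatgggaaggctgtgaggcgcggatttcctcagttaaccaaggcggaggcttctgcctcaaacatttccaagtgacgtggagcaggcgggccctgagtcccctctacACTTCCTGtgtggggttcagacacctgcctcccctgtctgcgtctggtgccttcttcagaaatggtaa
Cd247, chr1:165788431-165788730, plus strand: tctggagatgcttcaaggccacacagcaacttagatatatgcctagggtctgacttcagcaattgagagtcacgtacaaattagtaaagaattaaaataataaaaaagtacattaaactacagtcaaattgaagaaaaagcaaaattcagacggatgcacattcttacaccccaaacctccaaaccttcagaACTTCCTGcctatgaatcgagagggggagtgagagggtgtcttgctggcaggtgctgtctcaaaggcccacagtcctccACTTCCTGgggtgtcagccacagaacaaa
In Cd3e the motif began 18 bases before the start, and in Cd247 one copy began 58 bases before it and another 21 bases after it. Searched on both strands, it was in 4 of 11 windows of the 8 members other than Cd4, those of Cd3e, Cd247 and Lck, and in 3.33% of 32851 windows of all genes. Since the motif was picked from these promoters, its share among them was set by that choice and shows no enrichment. The motif was present in genes with opposite signs in knockout, and binding was not measured.

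Of 90 other genes of the pathway in 6 lists, 87 were in the table and tested. In knockout 7 rose and 8 fell, 17.2% of them, against 13% of all tested genes, and their median log2 difference was -0.07, against -0.01. Of the 87, 0 were called when knockout library 1, wild-type library 1 or wild-type library 2 was left out, when 0, 20 and 1 of all tested genes were. In overexpression edgeR called none of the 87, against 0.11% of all tested genes, and 9 had an unadjusted p under 0.05, against 8.7%. DESeq2 called 1 (Syk), against 0.916% of all genes it tested, and edgeR with no filter called 3 (Cd8a, Malt1 and Syk), against 2.75%.

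Receptor chains and coreceptors were measured through 8 genes, since Trac, Trbc1 and Trbc2 were not matched. Cd28, the main costimulatory receptor, fell in knockout by 0.70 on the log2 scale (SE 0.16, adjusted p = 0.0327), with 454 and 528 CPM in knockout libraries, against 717 and 882 CPM in wild-type libraries. Its effect differed between the 2 experiments by 1.11 (SE 0.23, adjusted p = 0.0274), as did the effects on the costimulator Icos (1.24, SE 0.28, adjusted p = 0.0341) and on Cd8a (4.98, SE 1.05, adjusted p = 0.0285), the coreceptor of CD8 T cells, which was at 0.157 to 4.26 CPM.

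Regulators of Lck and phosphatases had 1 rise and 3 falls among 17 genes in knockout, against 6.63% and 6.4% of all tested genes. Syk, the ZAP-70 relative that B cells use, fell by 2.55 (SE 0.43, adjusted p = 0.0246), with 2.164 and 3.34 CPM in knockout libraries, against 11.3 and 21.01 CPM in wild-type libraries, and had 8.52 and 10.6 CPM in overexpression libraries, against 1.96 and 3.38 CPM in control vector libraries. The B cell marker sums above had the same order, and their part in Syk was not tested. Ptpn6, a phosphatase that dampens receptor signals, rose by 0.72 (SE 0.15, adjusted p = 0.0289), and Sla, an adaptor that lowers receptor levels, fell by 0.87 (SE 0.19, adjusted p = 0.0306). Cblb, a ubiquitin ligase that restrains T cells, also fell, and differed between the experiments by 0.91 (SE 0.24, adjusted p = 0.0476). Its fall was called in 7 of 15 alternatives and its difference in 5 of 14.

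Of the 20 adaptors and enzymes around LAT, Skap1, an adaptor of integrin activation, rose in knockout by 1.19 (SE 0.22, adjusted p = 0.0254), with 146 and 100.2 CPM in knockout libraries, against 54.6 and 53.3 CPM in wild-type libraries. Sit1, a transmembrane adaptor, rose by 1.04 (SE 0.27, adjusted p = 0.0400). Thus 2 of the 20 rose and none fell, against 6.63% and 6.4% of all tested genes. Among 14 calcium and NFAT genes, the calcium release channel Itpr2 rose by 1.21 (SE 0.27, adjusted p = 0.0317), the calcium sensor Stim1 rose by 0.64 (SE 0.16, adjusted p = 0.0389) and Itpr1 fell by 0.60 (SE 0.15, adjusted p = 0.0392).

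No gene of the 10 of the protein kinase C theta branch was called in knockout by edgeR, against 13% of all tested genes. Prkcq, the kinase itself, had 116 and 196 CPM in knockout libraries, against 310.4 and 273 CPM in wild-type libraries (-0.90, SE 0.27, adjusted p = 0.0591), and was called in 6 of 15 alternatives, with adjusted p from 1.5e-05 to 0.391. In the Ras and MAP kinase branch 2 of 18 genes rose and 3 fell, against 6.63% and 6.4% of all tested genes. Dgka, which removes the lipid that activates this branch, rose by 0.84 (SE 0.19, adjusted p = 0.0315), and the kinase gene Mapk3 rose by 1.20 (SE 0.28, adjusted p = 0.0323). Nras and Dusp2 were among those that fell. The median of the 18 was -0.42, against -0.01 over all tested genes.

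In overexpression, the smallest unadjusted p of each list belonged to Cd8a, Syk, Trat1, Nfatc3, Malt1 and Rasa2, with adjusted p of 0.335 to 0.602. In the test of the difference, 7 of the 87 were called positive and 3 negative, against 4.58% and 4.45% of all tested genes; they included Ptpn6 (-0.98, adjusted p = 0.0301), Skap1 (-1.64, adjusted p = 0.0209), Stim1 (-0.85, adjusted p = 0.0495) and Syk (4.39, adjusted p = 0.0126). No gene of the protein kinase C theta branch was called there, and Tab2 had its smallest p (adjusted p = 0.109). Between wild type and control vector edgeR called none of the 87, against 0.228% of all tested genes. An unadjusted p under 0.05 was found for 17, against 16.5%, and DESeq2 called 2 (Cd28 and Syk), against 2.93% of all genes it tested. By edgeR, Syk, Cd8a, Orai2 and Traf6 had the smallest p of their lists, with adjusted p of 0.0606 to 0.274.

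**Figure D5:**
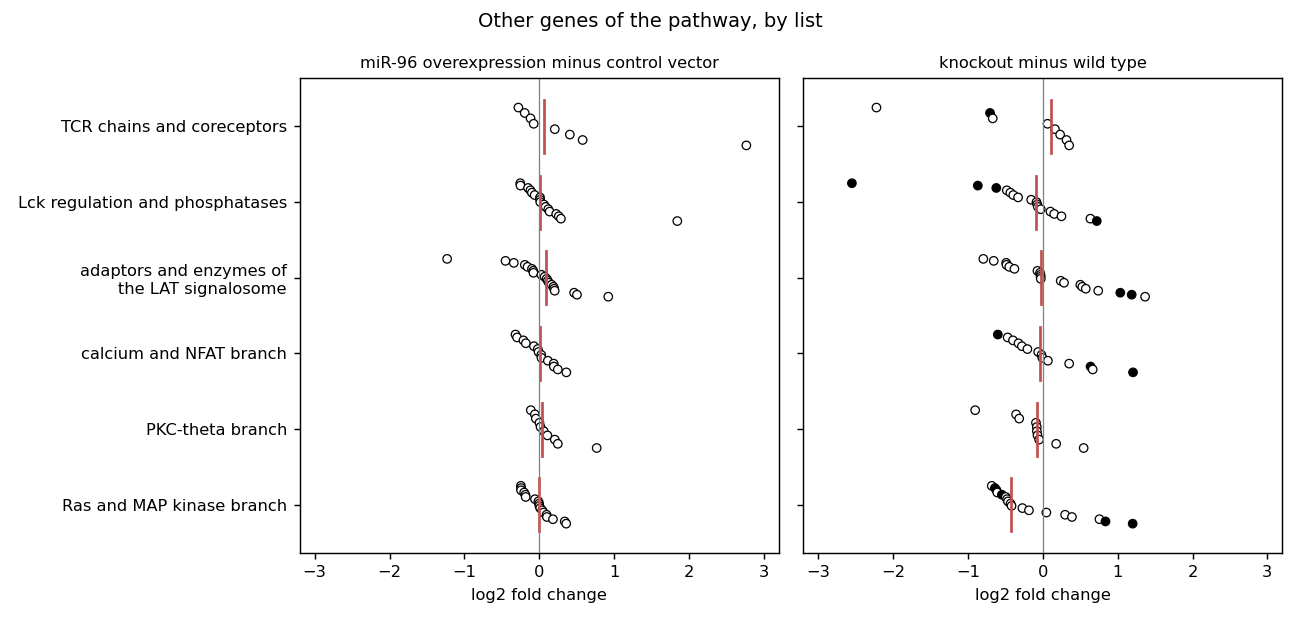
log2 fold change of the 87 other tested genes of the pathway by list, in miR-96 overexpression minus control vector and knockout minus wild type (1 point per gene; filled, adjusted p under 0.05; red line, list median). No point is filled in overexpression, and 15 are filled in knockout, 7 on the right of zero and 8 on the left.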

How the data were processed

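The authors deposited 1 table of unnormalized estimated counts, genes by libraries. Tools listed in the submitters' processing notes, without roles, are STAR 2.3.0, Partek, edgeR and bcl2fastq 2.16.0.10, for the mm10 assembly. The labels' protocols give poly(A) selection with NEBNext Ultra. The annotation counted against and use of strand are not given in the sources used here. The 27 of 24453 lines with a date serial in place of a symbol were left out (at most 0.243% of counts). Estimated counts were rounded and tested with edgeR 4.0.16 in R 4.3.3 (quasi-likelihood, TMM, filterByExpr with minimum count 10 and total 15, all 8 libraries, a term for group, 4 residual degrees of freedom, common dispersion 0.0354). Benjamini-Hochberg adjustment was over 11851 genes, and calls were at adjusted p under 0.05. SEs come from the fold change and F. The fit was run on simulated counts with known changes, which does not test the calls made here. Positions are from GENCODE mouse release 21, GRCm38. Members, lists and tests were chosen with earlier results of these data known. Named genes were all members, per list up to 3 called genes by smallest p (otherwise the smallest p), the 2 most alike genes per member, and the most abundant or called markers. A few genes that the rule took are not reported here. Nras, Dusp2 and, in knockout, Cblb were named after their values were seen. Alternatives were RLE and upper-quartile scaling, no filter, 1 CPM in 2 libraries, DESeq2 1.42.0, a replicate block, only the 4 libraries of a contrast, and each library left out.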

Additional observations from a re-analysis of the deposited data

Results flagged for a closer look

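The genes named here had effects that differed between the 2 experiments by edgeR's test of the difference, the overexpression effect minus the knockout effect on the log2 scale. Cd247, the zeta chain, differed by 1.52 (adjusted p = 0.0426), and it is the only one of the 9 receptor genes that did. Of the other pathway genes, Cd8a differed by 4.98, Syk by 4.39, Icos by 1.24, Cd28 by 1.11 and Cblb by 0.91. Cd8a was at only 0.157 to 4.26 CPM, and the part of B cells in Syk was not tested. Skap1 differed by -1.64, Ptpn6 by -0.98 and Stim1 by -0.85. Adjusted p ranged from 0.0126 (Syk) to 0.0495 (Stim1). The signs held in all 14 alternatives, but the calls held in fewer: 12 for Syk, 11 for Skap1, 9 each for Cd8a, Cd28 and Icos, 8 each for Cd247 and Ptpn6, 6 for Stim1 and 5 for Cblb.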

How the results depend on the processing

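The called values of members, pathway genes and markers, 57 over the 4 comparisons, kept their sign in every alternative that was run; other genes were not followed one by one. The count of all genes called moved widely. In overexpression it was 13, against 466 with no filter, 116 by DESeq2, 8 with only the 4 libraries of the contrast and 0 to 125 with 1 library left out. In knockout it was 1544, against 3151 with no filter, 2641 with the 4 libraries and 0 to 1975 with 1 library left out: 0 without knockout library 1, 1 without wild-type library 2 and 20 without wild-type library 1. For the difference it was 1070, against 2534 with no filter, 1635 by DESeq2 and 23 to 1613 with 1 library left out. Between wild type and control vector it was 27, against 1108 with no filter, 371 by DESeq2, 65 with a replicate block, 94 with the 4 libraries and 2 to 77 with 1 library left out.

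Of the 9 genes, 1 was called in overexpression with no filter (2.75% of all genes were). In knockout 2 were called with no filter (18.6% of all genes), by DESeq2 (17.5%, 2161 genes) and with the 4 libraries (23.3%). For the difference 2 were called with no filter (15%) and by DESeq2 (13.6%), and between wild type and control vector 1 was called with no filter (6.54%) and by DESeq2 (2.93%). With 1 library left out these counts ran from 0 to 2 in knockout and for the difference. Cd247 in overexpression was called with no filter (0.59, adjusted p = 0.0413). In knockout it was called with no filter (-0.91), by DESeq2 (-0.91, adjusted p = 0.00589), with a replicate block (-0.90, adjusted p = 0.0256) and with the 4 libraries (-0.91, adjusted p = 0.0160), and was -1.13 to -0.66 with 1 library left out. Between wild type and control vector it was called with no filter (0.90) and by DESeq2 (0.91). For the difference it was 1.11 to 1.97 with 1 library left out. Cd3e in knockout was 0.51 with a replicate block, not called, and 0.40 to 0.61 with 1 library left out. Its difference was called with no filter (-0.68, adjusted p = 0.0498) and by DESeq2 (-0.67, adjusted p = 0.0438), and was -0.78 to -0.56 with 1 library left out. Where a library was left out fewer samples entered the fit, and otherwise the cause was not tested. Whether the numbers of duplicates pair the libraries could not be settled with 2 libraries a group. Deviations of same-numbered libraries had r from -0.22 to 0.34 across 11851 genes. With unscaled library totals the summed level of the 9 genes was 2877 CPM in overexpression and 2967 CPM in wild type. That of the 4 chains was 797 CPM in control vector, 899.8 CPM in knockout and 834.8 CPM in wild type.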
